A study of Mus musculus with 8 samples.

Results

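The regions described here are NF-YA CUT&RUN peaks that lie away from the gene starts used by the study. Whether each is a binding site was not tested. They were chosen as the CUT&RUN peaks to which the study had assigned no gene, because no gene start lay within 10000 bases, and whose normalised read count averaged at least 20 over the 4 NF-YA libraries. This rule gave 615 of the 7196 peaks of the series (8.55%), or 24.8% of the 2480 peaks without an assigned gene. CUT&RUN releases and sequences the DNA around a chromatin protein by means of an antibody and a tethered nuclease. The cells were cultured, activated and proliferating muscle stem cells (MuSCs), which regenerate skeletal muscle, from adult C57BL/6 mice. Taf4asKO mice carried the floxed Taf4a allele on both copies and a tamoxifen-inducible Cre driven by Pax7, a gene of MuSCs, so that Taf4a was removed in these cells after tamoxifen. Control animals carried the same floxed allele without its deletion. Each genotype had 2 NF-YA libraries (control replicates 1 and 2, Taf4asKO replicates 1 and 2). CUT&RUN measures no expression, so that the cell type could not be checked against its marker genes. The 4 IgG libraries, made with an unspecific antibody, were not analysed here. The labels do not say whether replicates came from separate animals or cultures, so that the tests measure the spread between these libraries, which may be technical.

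NF-Y is a trimer of NF-YA, NF-YB and NF-YC. NF-YB and NF-YC form a dimer that resembles a pair of core histones, and NF-YA adds the contact with the CCAAT pentamer. The factor is best known from promoters, where CCAAT sits a short way upstream of the start of transcription, but it also occupies enhancers and repeated elements far from genes. TAF4A, encoded by the gene that the annotation calls Taf4, is a core subunit of TFIID, the complex that brings the TATA-binding protein TBP to promoters.

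The strongest members in control cells are shown first, and the genomic sequence around their CCAAT motifs is given below from the mouse build mm10. Capitals mark CCAAT, or ATTGG where the motif lies on the other strand. In its central 200 bases, the peak in Kat6b, which encodes a histone acetyltransferase, holds a pair of CCAAT in opposite directions, of 8 in the whole peak. The peak 38944 bases upstream of Myod1, the gene of a transcription factor that directs cells to the muscle lineage, holds a central row of 3 in the same direction, of 4 in all. The peak nearest to Nfe2l3, a bZIP transcription factor gene, holds 1 in the centre and 5 in all. The central motifs are shown.
Kat6b (chr14:21500571-21500651, plus strand): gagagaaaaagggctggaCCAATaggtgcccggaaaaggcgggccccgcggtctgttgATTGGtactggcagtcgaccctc
Upstream of Nfe2l3 (chr6:51178424-51178464, plus strand): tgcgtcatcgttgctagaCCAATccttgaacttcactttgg
Upstream of Myod1 (chr7:46337472-46337594, plus strand): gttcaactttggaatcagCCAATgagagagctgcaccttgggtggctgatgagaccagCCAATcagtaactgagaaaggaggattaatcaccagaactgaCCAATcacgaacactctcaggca
Hdac4 (chr1:92180469-92180509, plus strand): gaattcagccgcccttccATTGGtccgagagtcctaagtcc

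The signal at these sites was strong and close between replicates. At the Kat6b peak (chr14:21500398-21500981) the normalised read count was 762 and 796 in the control libraries and 509 and 584 in the Taf4asKO libraries. The peak nearest to Nfe2l3 (chr6:51178087-51178864), 254195 bases upstream of its start, had 510 and 476 in control against 323 and 332 in Taf4asKO. The peak upstream of Myod1 (chr7:46337244-46337816) had 478 and 470 in control against 316 and 308 in Taf4asKO. At each of these 3 sites both Taf4asKO libraries lay below both control libraries, which the choice by control mean favours. The first 2 were not called between genotypes (limma adjusted p = 0.0714 and 0.0542). Of the other members among the 8 with the highest control mean, 2 lay in exon 15 of Taf4 and are described with the genotypes. The peak in Hdac4 (chr1:92180262-92180703), the gene of a histone deacetylase, had 255 and 245 in control against 207 and 234 in Taf4asKO. An intergenic peak at chr15:98181170-98181647 had 259 and 245 in control against 210 and 221 in Taf4asKO, and one at chr2:168458600-168459253 had 261 and 241 in control against 161 and 154 in Taf4asKO.

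A second Myod1 neighbour was built of a tandem repeat. The member at chr7:46321290-46321656, 55001 bases upstream of the Myod1 start, holds 5 CCAAT motifs, all on the plus strand and each 31 bases from the next. The same unit also carries an AP-1 motif, the site of the FOS and JUN transcription factors, searched here as TGANTCA. Its normalised read count was 45 and 62 in control against 47 and 52 in Taf4asKO, so that the genotypes overlapped. The stretch is shown with CCAAT and TGANTCA in capitals, and 4 of the AP-1 motifs fall within it.
Tandem repeat upstream of Myod1 (chr7:46321370-46321534, plus strand): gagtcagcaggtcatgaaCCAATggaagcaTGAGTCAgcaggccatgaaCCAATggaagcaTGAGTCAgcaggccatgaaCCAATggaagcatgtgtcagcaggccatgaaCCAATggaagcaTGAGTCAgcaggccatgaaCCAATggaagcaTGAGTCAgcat

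Some clear members had AP-1 motifs and no CCAAT anywhere in the peak. The strongest of them (chr8:79208718-79209009, intergenic) had normalised read counts of 154 and 137 in control against 103 and 113 in Taf4asKO, and contains a single TGANTCA. Another (chr13:45623865-45624179), in an intron of Atxn1, had 117 and 72 in control against 58 and 123 in Taf4asKO, and is an array of AP-1 motifs, 12 of them in the stretch below. These peaks and the tandem repeat were picked for their sequence after their values had been seen. Capitals mark TGANTCA.
Single AP-1 motif (chr8:79208831-79208881, plus strand): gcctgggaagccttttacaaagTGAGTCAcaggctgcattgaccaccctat
AP-1 array in Atxn1 (chr13:45623900-45624141, plus strand): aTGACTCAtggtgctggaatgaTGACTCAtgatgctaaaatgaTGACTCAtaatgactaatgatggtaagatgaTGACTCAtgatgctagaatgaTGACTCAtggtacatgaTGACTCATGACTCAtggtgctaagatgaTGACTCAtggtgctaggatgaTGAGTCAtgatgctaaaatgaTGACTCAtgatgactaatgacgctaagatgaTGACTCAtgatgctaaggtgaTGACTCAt

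The members included copies of repeated elements. Members were linked when they shared at least 15 identical stretches of 20 bases. The largest such family had 9 members, in which 69% to 85.5% of the central 200 bases were soft-masked, the mark for interspersed repeats in the reference genome. Each of the 9 carried a pair of CCAAT spaced 28 bases apart, start to start. Over a window of 63 bases around this pair, the pairwise identity of the members was 77.8% to 96.8%. A second family of 6 members had a pair spaced 39 bases apart in 5 of them, and identities of 55.4% to 85.1% over 74 bases. Only 12% to 34.5% of its central bases were soft-masked. Repeats were no trait of the members as a whole. At least 50% of the central 200 bases were soft-masked in 22 members (3.58%), against 3.27% of all peaks. The average soft-masked share was 9.05% in the members and 24.1% in their flanks. The first 2 sequences belong to the first family and the last 2 to the second, each read on the strand on which the motif is CCAAT.
Family with a spacing of 28 bases, copy in Gm29040 (chr1:43281218-43281280, plus strand): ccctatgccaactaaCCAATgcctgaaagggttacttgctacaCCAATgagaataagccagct
Family with a spacing of 28 bases, second copy (chr1:58374262-58374324, minus strand): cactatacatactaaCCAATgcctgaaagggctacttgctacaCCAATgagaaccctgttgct
Family with a spacing of 39 bases, strongest copy (chr7:24841220-24841293, plus strand): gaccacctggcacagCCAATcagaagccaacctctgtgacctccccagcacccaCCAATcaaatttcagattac
Family with a spacing of 39 bases, second copy (chr6:37794195-37794268, minus strand): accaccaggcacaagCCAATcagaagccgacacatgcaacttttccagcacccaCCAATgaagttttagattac

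The family members were weak to moderate peaks. Means ranged from 22.75 to 37.5 in the first family and from 23.5 to 60.75 in the second. Of the 15 members 0 were called between genotypes by limma, where 0.948% of all tested peaks were, with a lowest adjusted p of 0.280 in the first family and 0.383 in the second. Another 27 peaks of the series shared as many 20-base stretches with the first family without being members, 18 of them assigned to a gene, and 8 did so with the second, of which 6 were assigned and 1 was itself a member outside the family. The elements were therefore not limited to the unassigned peaks. The copy in the long noncoding gene Gm29040 (chr1:43281049-43281330) had normalised read counts of 36 and 42 in control against 24 and 34 in Taf4asKO.

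By position the members were mostly intronic or intergenic. In the GENCODE M21 annotation of mm10, 46.2% of the peak centres lay in an intron, 38.4% between genes, 2.28% in an exon and 1.14% in a UTR. The remaining 74 members (12.0%, 95% Wilson interval 9.69% to 14.8%) had their centre within 1000 bases of the start of some annotated transcript. The distance that the study used was to gene starts, and a gene start was within 10000 bases for only 4 members. In contrast, 84.6% of the 2714 gene-assigned peaks with a mean of at least 20 were at a transcript start, as the rule for membership largely dictates. The median distance to the nearest protein-coding gene start was 40237 bases, and it exceeded 100000 bases for 131 members (21.3%).

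**Figure D1:**
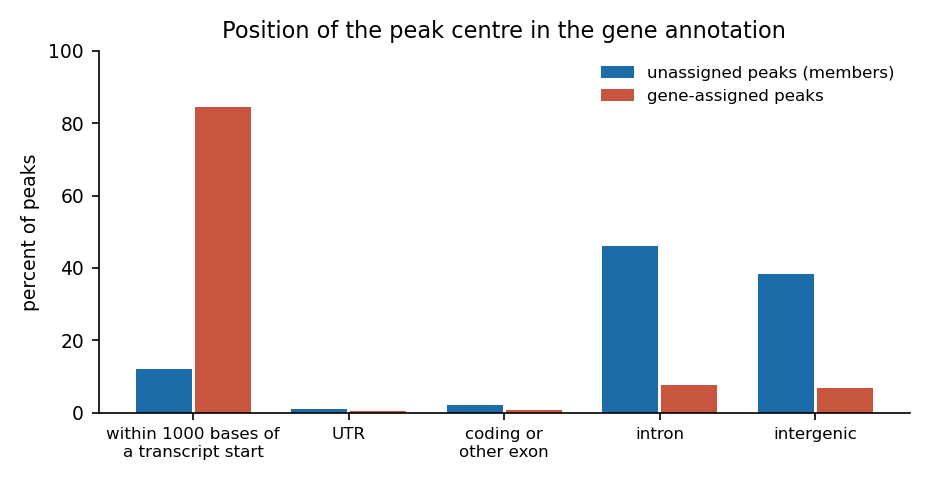
Bars show the percent of peaks whose centre falls in each class of the gene annotation, for the 615 unassigned peaks and the 2714 gene-assigned peaks with a mean of at least 20. Introns and intergenic sequence hold 46.2% and 38.4% of the unassigned peaks, and transcript starts hold 12.0% of them against 84.6% of the assigned peaks.

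Members at transcript starts had a higher level than the others, which is given as a description because the level was used to choose them. The median of their means was 51.8, against 32.8 in introns and 34.6 between genes. Examples are the internal transcript starts of Kat6b (164 bases from the peak centre) and Hdac4 (141 bases). One lay 240 bases from an internal start of Nfyc (chr4:120815654-120816251), the gene of the NF-YC subunit itself. Its normalised read count was 238 and 245 in control against 168 and 214 in Taf4asKO, with a log2 fold change of -0.35 ± 0.16 (SE) that was not called (adjusted p = 0.280). It holds 5 CCAAT in the whole peak but 0 in the central 200 bases. A further one lay 101 bases from an internal start of Hmgb1, the gene of an abundant chromatin protein, with 177 and 124 in control against 135 and 141 in Taf4asKO. Nfyc and Hmgb1 were named for their function after their values had been seen. Genes with several members were few, since the 357 members in protein-coding genes were spread over 324 genes. Besides Taf4 and Tbp, only Nav2 and Neb held 3.

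The members were weaker than the gene-assigned peaks chosen by the same minimum. Their mean had a median of 35.5 and ranged from 20 to 662.75, and 62 of them (10.1%) reached 100. Of the gene-assigned peaks 909 (33.5%) did so, with a median of 66.8. These levels were used to choose both sets and are given as a description. The median member was 274 bases wide, with a range of 80 to 876. One read was worth 1.04 and 3.26 normalised counts in control replicates 1 and 2, and 0.431 and 0.681 in Taf4asKO replicates 1 and 2. The median member thus rested on 36.4 and 11.04 reads in control and on 83.5 and 51.4 in Taf4asKO. Both Taf4asKO libraries held more reads in peaks than both control libraries, so that this number and the genotype cannot be told apart. Across the 615 members the log2 values of replicates correlated with r = 0.837 in control and 0.931 in Taf4asKO. These points share their libraries, and the correlations describe the agreement across peaks only.

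CCAAT was the most common feature of those searched that the choice of members had not used. It was found on either strand in the central 200 bases of 513 of the 615 members (83.4%, 95% Wilson interval 80.3% to 86.1%), against 20.8% of windows of the same length 1000 bases to either side. Over all peaks of the series the share was 78.5%, and over the gene-assigned peaks with a mean of at least 20 it was 91.0%. In the 513 members with the motif, the copy nearest to the centre lay at a median of 25 bases from it, a distance that the window bounds. At least 2 copies were present in 209 members (33.98%), compared with 54.2% of the gene-assigned peaks, and 2 members had 5. Of 292 neighbouring pairs of CCAAT 20 were spaced 39 bases apart, the most frequent spacing, and 17 of these had the same direction. Of the 805 copies in the central windows, 33.5% were followed by CA, against 8.73% of the copies in the flanks. The stretch upstream of Myod1 that reads CCAATCA is an example. In the centres of the gene-assigned peaks the share was 29.3%, and in those of all peaks 29.0%.

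The members differed from the gene-assigned peaks in the company CCAAT kept. The AP-1 motif TGANTCA was in the central 200 bases of 30.4% of members, 5.77% of their flanks, 7.59% of the gene-assigned peaks and 23.9% of all peaks. The opposite held for the GC box, GGGCGG on either strand, the site of SP1-type factors, which was in 13.7% of members, 4.80% of their flanks, 52.3% of the gene-assigned peaks and 27.8% of all peaks. GGAATG, the core of the site of TEAD factors, was found in 18.4% of members, 11.4% of flanks, 9.40% of the gene-assigned peaks and 14.2% of all peaks. ATTGG may overlap GGAATG by its last 2 letters. TGACGT, a part of the cAMP response element, was found in 5.85% of members 2.36% of flanks, 8.51% of the gene-assigned peaks and 5.81% of all peaks. For the E-box CACGTG the shares were 3.09% of members, 3.25% of flanks, 7.48% of the gene-assigned peaks and 5.28% of all peaks. The median GC content was 51.5% in the members, 46.8% in their flanks and 59.5% in the gene-assigned peaks. Of the 1722 peaks of the series with an AP-1 motif in this window, 187 were members and 206 gene-assigned peaks with a mean of at least 20. Most thus lay under the minimum of 20, and the motif was not particular to the members. A match of letters is a description of the sequence and does not show binding of the factor.

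**Figure D2:**
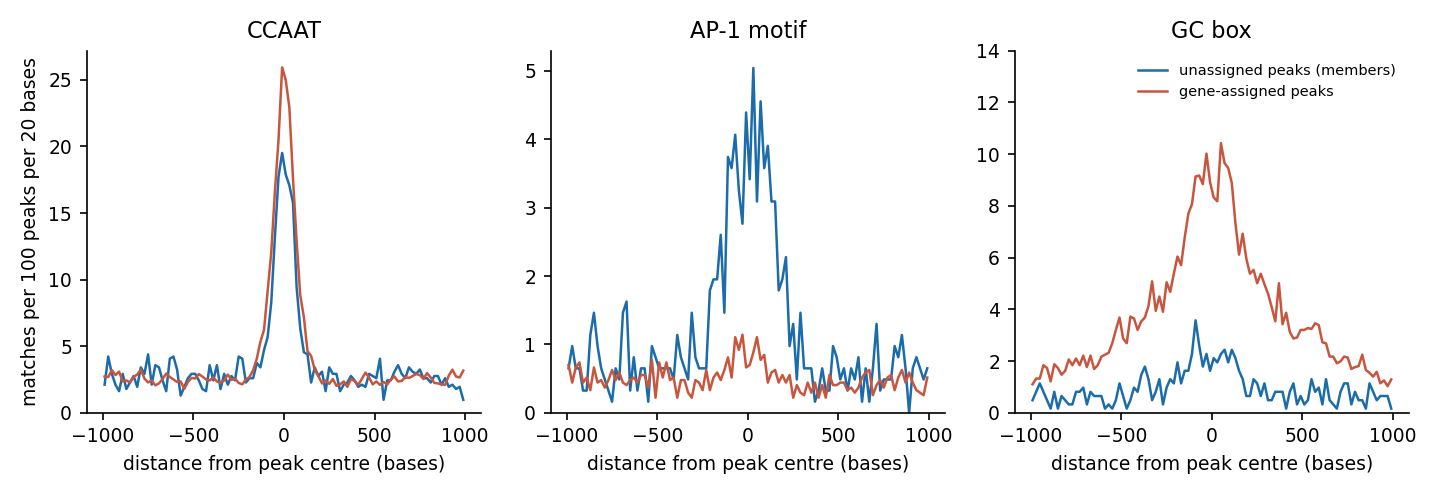
Lines give the number of motif matches on either strand per 100 peaks in bins of 20 bases, by distance from the peak centre, for the 615 unassigned and the 2714 gene-assigned peaks with a mean of at least 20. CCAAT rises to 19.5 matches at the centre of the unassigned peaks and 25.9 at that of the assigned peaks. Of the sets drawn, the AP-1 motif stands above the flanks mainly in the unassigned peaks, and the GC box is most frequent in the assigned peaks. Peaks with a mean under 20 are not drawn.

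The AP-1 share moved with the level of the peak. It was 35.3% in the 235 members with a mean of 20 to under 30, 31.2% from 30 to under 50, 28.0% from 50 to under 100 and 14.5% in the 62 members of 100 and over. In the gene-assigned peaks the share went from 13.1% to 3.85% over the same range. CCAAT changed little, between 81.2% and 87.1%. Among the 187 members with an AP-1 motif 154 also had CCAAT, a share of 82.4% that was close to the 83.9% of the members without one. Only 3.21% of the members with an AP-1 motif lay at a transcript start, against 15.9% of the others. In introns the AP-1 share was 35.6%, between genes 31.4% and at transcript starts 8.11%.

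**Figure D3:**
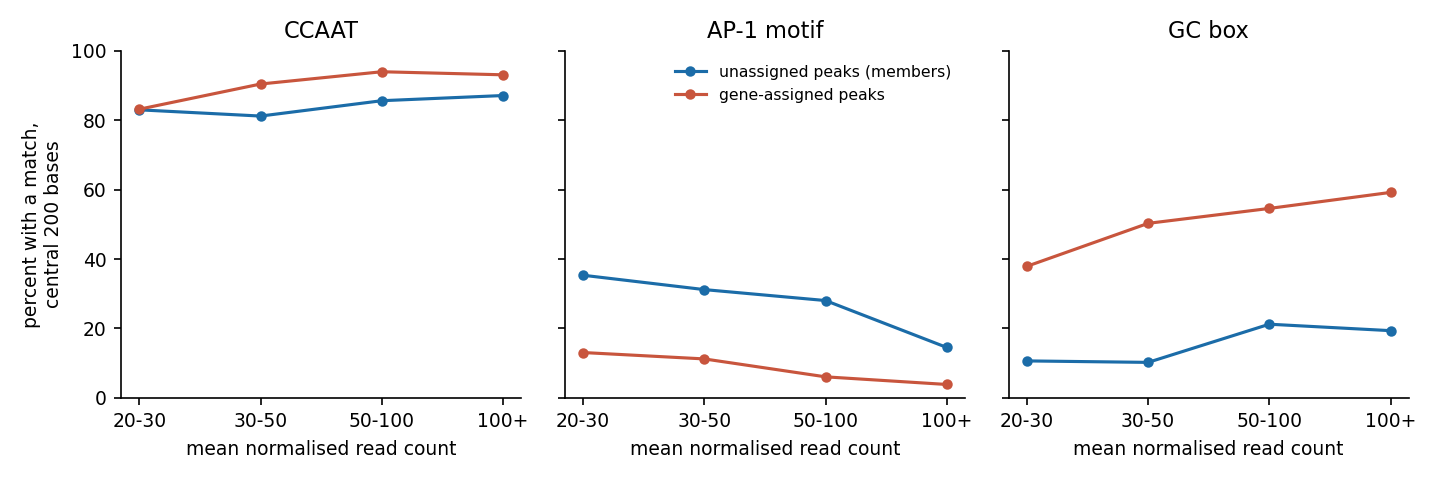
Points give the percent of peaks with at least 1 match in the central 200 bases, by class of mean normalised read count, for the unassigned and the gene-assigned peaks. In the unassigned peaks the AP-1 share goes from 35.3% in the weakest class to 14.5% in the strongest, while CCAAT stays between 81.2% and 87.1%.

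For most members the genotypes were close in NF-YA signal. The log2 fold change, Taf4asKO over control on the log2(value + 1) scale, had a median of -0.05 over the 615 members and -0.04 over the 4746 tested peaks. It was under 1 in size for 560 members (91.1%), against 92.4% of the tested peaks and 98.0% of the gene-assigned peaks with the same minimum. By limma, 26 members were called at an adjusted p under 0.05. In Taf4asKO 9 of them were higher and 17 lower. Over all tested peaks 45 (0.948%) were called, 0.337% higher and 0.611% lower. The members, at 4.23%, thus held 26 of the 45 calls, while 14 of the 2714 gene-assigned peaks (0.516%) were called. The difference between these shares was not tested. Of the 26 called members 15 had a mean under 20 in 1 genotype and reached the minimum through the other, where they had to be higher, so that the share of members called is no support for a difference. Of the 17 lower members 8 lay in Taf4 or Tbp, and without these 18 of 607 members were called, 9 in either direction. At an unadjusted p under 0.05 there were 166 members (27.0%), against 849 of all tested peaks (17.9%) and 16.6% of the gene-assigned peaks. By the ratio of group means, 25 members (4.07%) were over 2 times higher and 32 (5.20%) over 2 times lower, 24 of these outside Taf4 and Tbp, against 4.47% and 3.14% of all tested peaks. Centred on the strong peaks this balance turned to 52 higher and 17 lower, and without control replicate 1 there were 40 higher and 27 lower. Each time that 1 library was left out, 0 members were called by limma, with 65 to 188 at an unadjusted p under 0.05. In the limma fit centred on the strong peaks, 22 of 37 called members were higher instead of 9 of 26. With no minimum mean for the tested peaks, 0 members were called.

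**Figure D4:**
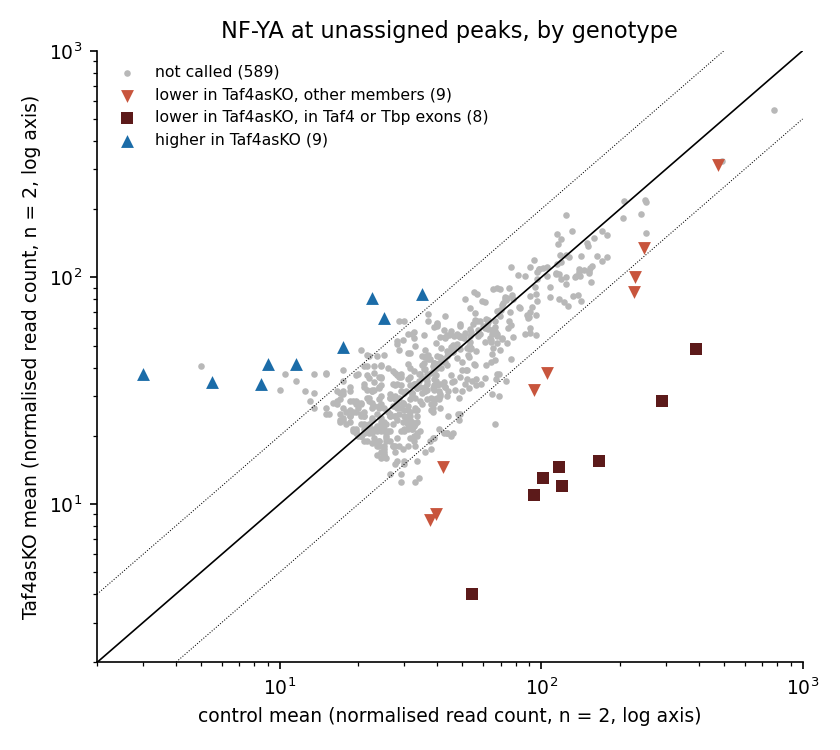
Each point is 1 of the 615 members, placed by its mean normalised read count in control (x) and Taf4asKO (y) on log axes, with the diagonal drawn solid and ratios of 2 in either direction dotted. Beyond the dotted lines lie 25 members above and 32 below, and the 8 members in Taf4 or Tbp exons form a group far below the diagonal.

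The most strongly reduced members lay in exons of Taf4 and Tbp. All 8 members in these genes were called lower, with log2 fold changes from -3.79 to -2.89. With no minimum mean for the tested peaks, 0 of the 8 were called, at the same fold changes. A low Taf4asKO level is partly built into this group, since 6 of the 8 had a Taf4asKO mean under 20 and reached the minimum through control. In Taf4 they overlapped exons 15 (2 members), 8, 3 and 2 of the 15 exons of its main transcript, and none overlapped exons 11 and 12, the pair that the loxP sites flank. In Tbp they overlapped exons 7, 8 and 9 of 9. The exons covered between 57.8% and 100% of each peak. The peak in the last exon of Taf4 at chr2:179913277-179913569, in its 3′ UTR, had 366 and 417 in control against 35 and 62 in Taf4asKO, and its log2 fold change was -3.04 ± 0.24 (SE, adjusted p = 0.000412). Its neighbour at chr2:179912432-179912660 had 258 and 320 in control against 20 and 37 in Taf4asKO.

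The other peaks in both genes fell too. The peak in exon 8 of Taf4 (chr2:179929309-179929394) had 84 and 150 in control against 10 and 19 in Taf4asKO. Exon 3 (chr2:179938445-179938527) had 83 and 121 against 10 and 16, and exon 2 (chr2:179939881-179939960) had 80 and 160 against 7 and 17. In Tbp, which encodes the TATA-binding protein, the peak of exon 8 (chr17:15515630-15515729) had 144 and 189 in control against 12 and 19 in Taf4asKO, so that its log2 fold change was -3.36 ± 0.27 (SE, adjusted p = 0.000412). Exon 9 (chr17:15516669-15516751) had 79 and 108 against 8 and 14, and exon 7 (chr17:15514248-15514344) had 50 and 59 against 1 and 7. These peaks differed from the other members in other ways too. Their median width was 91.5 bases against 275, they included all 6 members of at most 100 bases, and CCAAT was in the centre of 1 of the 8 against 84.3% of the other 607. The study had removed spliced reads before counting.

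Outside Taf4 and Tbp, 15 members had their centre in an exon or UTR. Of these 0 were called by limma, where 0.948% of all tested peaks were, so that the count says little, and 10 of the 15 had a log2 fold change below 0. The lowest was an exon of Col6a3, a collagen VI chain gene, with 46 and 46 in control against 19 and 22 in Taf4asKO (log2 fold change -1.13, adjusted p = 0.0821), and others were in Tcf7 (-0.97) and Kremen1 (-0.54). The highest, in an exon of Gm13814, was at 0.35.

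The 9 members called lower outside Taf4 and Tbp were spread over the genome. Those at Asap1, Stk24 and Ripor2 reached the minimum of 20 through control only. The peak in an intron of Asap1 (chr15:64117635-64117815), which encodes a GTPase-activating protein for ARF, had 40 and 39 in control against 11 and 7 in Taf4asKO (log2 fold change -2.05 ± 0.34, SE, adjusted p = 0.0317). The peak at an internal start of the kinase gene Stk24 (chr14:121359875-121360053) had 36 and 39 against 7 and 10 and contains no CCAAT. In an intron of Atp2b3 (chrX:73526517-73526819), a plasma membrane calcium pump gene, the values were 96 and 91 against 33 and 31. Here the log2 fold change was -1.52 ± 0.21 (SE, adjusted p = 0.0100), and the site holds 3 CCAAT, a pair of which almost touch.
Atp2b3, lower in Taf4asKO (chrX:73526614-73526723, plus strand): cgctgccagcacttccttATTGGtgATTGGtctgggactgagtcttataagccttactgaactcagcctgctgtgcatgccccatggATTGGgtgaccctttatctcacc
Asap1, lower in Taf4asKO (chr15:64117684-64117724, plus strand): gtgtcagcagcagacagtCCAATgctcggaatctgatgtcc

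The remaining lower members were intergenic, and most were strong peaks. At chr17:31929880-31930362, whose nearest coding start is that of the salt-inducible kinase gene Sik1 at 74317 bases, the counts were 237 and 215 in control against 88 and 85 in Taf4asKO (log2 fold change -1.37 ± 0.16, SE, adjusted p = 0.00395). At chr6:91619596-91620471, 64020 bases from Slc6a6, the taurine transporter gene, they were 247 and 209 against 100 and 101. This peak of 876 bases is the widest member, with 2 CCAAT that both lie outside the centre. Near Gmpr, a GMP reductase gene, the counts were 259 and 235 against 145 and 125, and near Fndc1 122 and 88 against 34 and 42. Near Ripor2 they were 42 and 42 against 13 and 16. The Myod1 peak was the smallest change called, with a log2 fold change of -0.60 ± 0.12 (SE, adjusted p = 0.0475). Its call was lost when the libraries were centred on strong peaks (adjusted p = 0.0616) and, like all 26 calls, with no minimum (0.285). The Ripor2 call was lost with equal totals (adjusted p = 0.0550) and, like that near Gmpr (0.0505), when centred on strong peaks (0.0595).

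The 9 members called higher had control means from 3 to 35, against a median of 36 over the members. A low control level is partly built into this group, since a peak can reach the minimum of 20 through its Taf4asKO libraries, and 6 of the 9 had a control mean under 20. The largest increase was in an intron of Banp (chr8:122013777-122013982), which encodes a DNA-binding BEN domain protein, with 3 and 3 in control against 36 and 39 in Taf4asKO (log2 fold change 3.27 ± 0.42, SE, adjusted p = 0.00780). These control values stand for 2.87 and 0.92 reads, so that the size of the change is poorly known. An intron of the noncoding gene Gm33782 (chr10:96325432-96325745) had 8 and 3 against 34 and 35, and an intergenic site nearest to Fsip2 (chr2:83056221-83056578) had 8 and 10 against 39 and 44. The intron of Immp2l (chr12:41950060-41950342) had 10 and 7 against 31 and 37. All 9 higher members contained CCAAT in the central 200 bases, as did 7 of the 9 lower ones outside Taf4 and Tbp. The difference was not tested, and 83.4% of all members had the motif.
Banp, higher in Taf4asKO (chr8:122013815-122013933, plus strand): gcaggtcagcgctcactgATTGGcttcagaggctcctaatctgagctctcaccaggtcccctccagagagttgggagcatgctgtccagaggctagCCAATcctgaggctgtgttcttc
Gm33782, higher in Taf4asKO (chr10:96325483-96325583, plus strand): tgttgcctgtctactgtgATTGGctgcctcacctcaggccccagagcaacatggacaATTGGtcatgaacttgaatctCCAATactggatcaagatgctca
Nearest to Fsip2, higher in Taf4asKO (chr2:83056451-83056491, plus strand): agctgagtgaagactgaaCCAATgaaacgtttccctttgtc

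The other 5 higher members were as follows. The peak 13600 bases from Btg2 (chr1:134065370-134065671), an anti-proliferative gene, had 29 and 16 in control against 77 and 85 in Taf4asKO (log2 fold change 1.86 ± 0.29, SE, adjusted p = 0.0232). An intron of Hspg2 (chr4:137509626-137509874), which encodes the basement membrane proteoglycan perlecan, had 15 and 20 against 52 and 47. The intron of Sv2c (chr13:96010834-96011489), a synaptic vesicle protein gene, had 27 and 23 against 72 and 61. A site at chr4:144837526-144837829 nearest to Gm438 had 10 and 13 against 42 and 41. The last, 178679 bases from Myocd, the gene of the coactivator myocardin, had 28 and 42 against 87 and 82. The member with the highest fitted log2 fold change, 3.63 at chr13:71653461-71653729, was not called (adjusted p = 0.0978), and its value in control replicate 2 was 0.

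**Figure D5:**
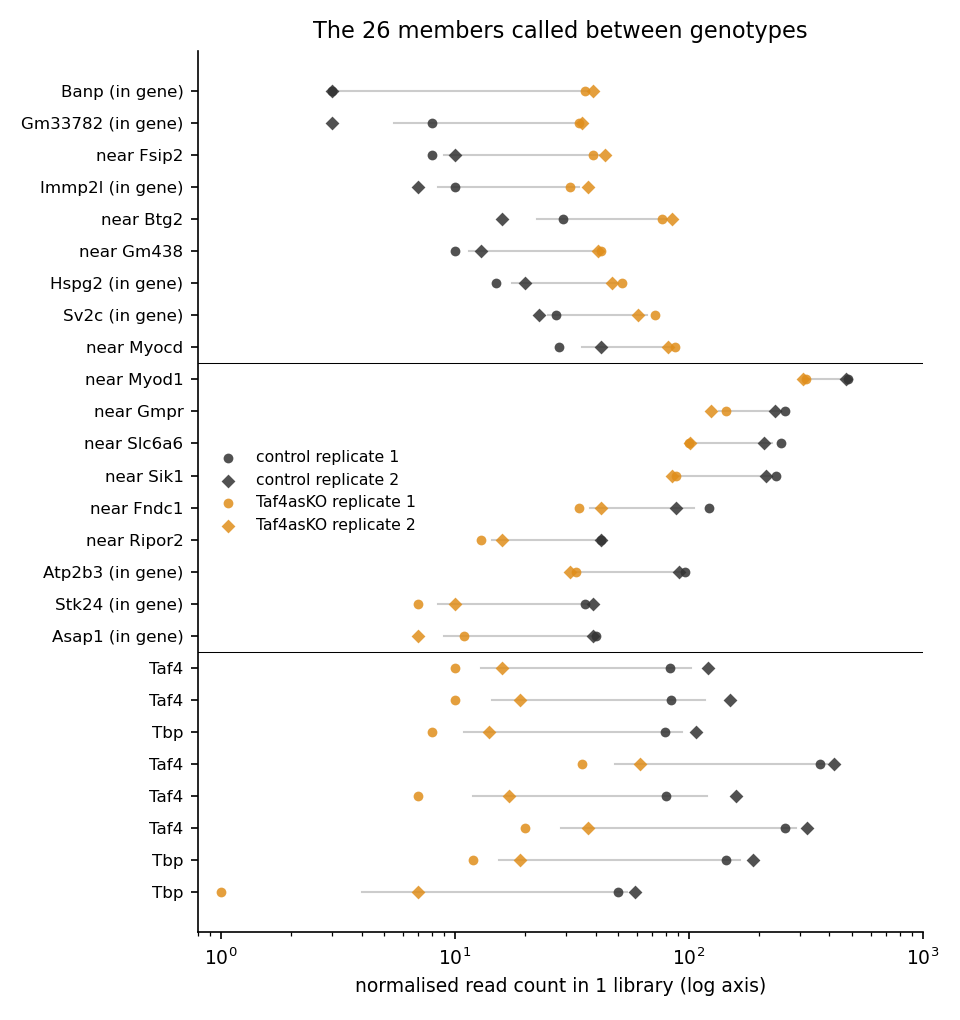
Each row is 1 of the 26 called members, named by the gene it lies in or by the nearest protein-coding start, with the normalised read count of each of the 4 libraries on a log axis and a grey line between the group means. The 9 higher members stand at the top, the 9 lower ones outside Taf4 and Tbp in the middle and the 8 exonic ones at the bottom. The libraries of the genotypes do not overlap in any row, as the call largely requires.

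The genotype difference was also set beside the motifs and levels of the members. Over all tested peaks 0.337% were called higher and 0.611% lower, and the counts below are descriptions. The 102 members without CCAAT in the centre had a median log2 fold change of -0.18. Of them 0 were called higher and 9 lower, of which 7 were in Taf4 or Tbp. The median without these 7 was not computed. The 513 with CCAAT had a median of -0.03, with 9 higher and 8 lower. Members with CCAAT and an AP-1 motif had a median of 0.08, those with CCAAT alone -0.08, those with an AP-1 motif alone -0.16, and the 69 with neither -0.23, with 9 called lower. By level, the 62 members of 100 and over had a median of -0.24, with 0 called higher and 6 lower, and 47 of them were below 0. The 909 gene-assigned peaks of that level had a median of -0.22, also with 0 called higher and 6 lower. Centring the libraries on the peaks of this level moved the median of all tested peaks from -0.04 to 0.19.

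Few members lay in or next to genes of the lists that describe these cells, and the number to be expected was not worked out. Of 40 muscle stem cell genes 5 had 6 members in or nearest to them, and 1 member, the strong Myod1 peak, was called lower. Lists with so few members say nothing of the list as a whole, beside 4.23% of members and 0.948% of tested peaks called. Nearest to Mef2a, a muscle transcription factor gene, the counts were 104 and 49 in control against 42 and 45 in Taf4asKO. The peak assigned by distance to Cdh15, the gene of M-cadherin, lies in an exon of Ankrd11 and had 56 and 42 against 51 and 59. Near Vcam1, an adhesion receptor gene of MuSCs, they were 17 and 16 against 28 and 29. Near Id2, an inhibitor of bHLH factors, 22 and 20 stood against 21 and 22.

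The other lists gave the following. Among 36 cell cycle genes there were 3 members, 2 of them in Pvt1 downstream of Myc, with 104 and 134 in control against 119 and 116 in Taf4asKO at the stronger, and 1 in Ccnd3, a D-type cyclin gene, with 37 and 39 in either genotype. Their log2 fold changes lay between -0.01 and 0.06, and 0 were called. Among 50 matrix and adhesion genes there were 8 members, with the Hspg2 intron called higher, 0 lower, a median of 0.19 and a range of -1.13 (the Col6a3 exon) to 1.46. Among 57 genes of the Notch, Wnt and TGF-beta pathways there were 4, with 0 called and a median of 0.24. An intron of Acvr1, a receptor gene of the TGF-beta family, had 84 and 46 in control against 58 and 59 in Taf4asKO. Nearest to the Notch ligand gene Dll1 the counts were 24 and 33 against 41 and 32, in an intron of Tcf7l2, a Wnt effector gene, 23 and 20 against 32 and 27, and nearest to the Notch target Hes1, 23 and 16 against 21 and 21. Of the 17 TFIID genes only Taf4 and Tbp held members, 8 in all. The median over all tested peaks, for comparison, was -0.04.

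The minimum of 20 is not a natural boundary. Exactly at it were 10 members, and 11 unassigned peaks had a mean of 19.75. Just inside were the Gm33782 peak, a peak in Diaph3 with 14 and 20 in control against 21 and 25 in Taf4asKO, and 1 in Gnb1l with 14 and 33 against 18 and 15. Just outside were peaks in Gm32200 with 7 and 7 against 32 and 33, in Hhat with 22 and 20 against 21 and 16, and in Pygl with 7 and 13 against 28 and 31. At a mean of at least 20 in each genotype, 502 of the 615 would have remained, so that a part of the members entered through 1 genotype only.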

How the data were processed

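NF-YA CUT&RUN libraries (2 control, 2 Taf4asKO) were grouped and numbered by their labels. The authors trimmed reads with Trimmomatic 0.39, aligned them with STAR 2.7.11a to mm10, removed duplicates with Picard 3.1.1 as well as spliced and multi-mapping reads, called peaks with MACS against IgG, merged the peaks of all libraries and counted reads per merged peak with featureCounts. The deposited score of each peak is this read number after normalisation by the authors with DESeq2 (version 1.36.0 in the submitters' processing notes), rounded to whole numbers. It is no raw count, so that no count model was run. The STAR and Picard versions also come from the submitters' notes, and the paper gives other versions for CUT&RUN. Reads in peaks, estimated from the value of 1 read, were 351693 and 111267 for the control libraries and 735144 and 505292 for the Taf4asKO libraries. The latter are estimates, because a single read there adds less than 1 to the rounded value.

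Peaks with a mean of at least 10 (4746) were tested with limma 3.58.1 (R 4.3.3, trend, two-sided) on log2(value + 1), with Benjamini-Hochberg adjustment over all of them. In counts simulated for this comparison on 4731 peaks, 184 of 200 peaks changed by 2 on the log2 scale were called in the right direction, and 0 unchanged ones. Fold changes understate the change of low peaks. Positions were taken from GENCODE M21, in which 3972 of 3978 assigned gene IDs were found, and sequences from RefSeq's GRCm38.p6 (mm10). Coordinates are those of the deposited table. Named members were the 8 with the highest control mean, all in Taf4 or Tbp, the 8 largest called increases and decreases outside these, the 4 strongest of the muscle stem cell and of the Notch, Wnt and TGF-beta lists, 3 on either side of the minimum and the strongest 2 of the largest sequence family, of which 1 is not shown. Other members were named after their values had been seen. Members and lists were chosen with earlier results of these data known. Alternatives were 3 other scalings, another pseudocount, minimum and threshold, weights, a replicate block, leaving out each library, and other windows. Intervals cover counting error only.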

Additional observations from a re-analysis of the deposited data

How the results depend on the processing

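All 26 calls by limma stood with equal medians (47 called, 17 higher, 30 lower), with a minimum mean of 20 (54, 22 and 32) and with weights from the reads (82, 28 and 54). Over all tested peaks these settings called 141, 126 and 287 instead of 45. At an adjusted p under 0.1 there were 48 members, 19 higher and 29 lower, of 131 peaks. With equal totals 14 members were higher and 25 of the 26 calls stood, and when centred on strong peaks 22 were higher, of 78 peaks called, and 23 stood. With no minimum 0 members and 0 peaks were called, with 155 members and 1015 peaks at an unadjusted p under 0.05. Without any 1 library 0 members and 0 peaks were called, with 65 to 188 members and 227 to 1089 peaks at an unadjusted p under 0.05. All 26 called members kept their direction in each of these settings. Without a library, the lone library of its genotype is assumed to vary like the others. Depth limits control replicate 2 most, where the median member rests on 11.04 reads.

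Members over 2 times higher numbered 39 with equal totals, 52 centred on strong peaks, 78 at a ratio of 1.5, 14 where both libraries had to pass both others, and 26 to 40 without 1 library (40 without control replicate 1). Members over 2 times lower numbered 17 centred on strong peaks, 90 at 1.5, 16 with both libraries and 27 to 43 without 1 library. A minimum mean of 10 would give 1194 members and of 50, 194. With coding transcripts only, 9.27% of members were at a start. CCAAT was in the central 100 bases of 64.6% and in the whole peak of 87.3%.

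Same-numbered libraries did not deviate together (correlation -0.09 over the tested peaks), so that the numbers pair nothing. With the replicate block limma called 16 members, 3 higher and 13 lower, all 16 among the 26, and the 8 in Taf4 and Tbp among them. The 10 others were those at Asap1, Stk24, Ripor2, Myod1, Gm33782, Immp2l, Gm438, Hspg2, Sv2c and Myocd, with an adjusted p of 0.0574 (Asap1) to 0.0889 (Ripor2) among those named by rule.

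Among the named members, directions turned only in ones that were not called. Centred on strong peaks, the log2 fold change was 0.0059 at chr15:98181170-98181647, 0.0478 in Hdac4, 0.14 at the Myod1 tandem repeat and 0.14 in Acvr1. With equal totals it was 0.0509 at the tandem repeat and 0.0576 in Acvr1, and with weights -0.00067 near Hes1. Without 1 library it ranged from -0.0292 to 0.38 near Cdh15, from -0.32 to 0.13 at the tandem repeat, from -0.51 to 0.34 in Acvr1, from -0.13 to 0.37 near Hes1 and from -0.96 to 0.22 in Gnb1l, each range being set by leaving out the 2 control libraries. The causes were not tested.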

Other observations

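Some members stood close together. There were 26 groups in which each member lay within 10000 bases of the next, holding 57 members (9.27%). The largest was a run of 4 between chr11:120305042 and chr11:120316572, with means of 131.75, 22.75, 78.25 and 195, whose nearest protein-coding start is that of Actg1, the gamma-actin gene, 32288 to 43195 bases away. Their log2 fold changes lay between -0.54 and -0.16. By limma 0 of the 4 were called, with a lowest adjusted p of 0.249. Since 0.948% of all tested peaks were called, this count says little. The strong peak nearest to Nfe2l3 had a pair of neighbours at chr6:51170935-51171297 and chr6:51172883-51173248, with means of 150.75 and 121.25 and log2 fold changes of -0.53 and -0.48, which were not called (adjusted p = 0.138 and 0.193).

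A pair of members sat at internal starts of Neb, the gene of the muscle filament protein nebulin. The one 47 bases from a transcript start (chr2:52335689-52335930) had 71 and 59 in control and 29 and 32 in Taf4asKO, and the other (chr2:52335195-52335420) 42 and 39 against 23 and 20. Neither was called by limma (adjusted p = 0.0714 and 0.138). Another member in an intron of Neb had 57 and 65 against 66 and 54. Neb was named after its values had been seen.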
